A study of Mus musculus with 39 samples.

Results

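The collagen genes were described in epididymal white adipose tissue of C57BL/6J mice over 18 weeks on 5 diets. They were taken as every non-control probe of the array whose gene name has the form of a collagen alpha chain, which gave 40 genes on 73 probes of 29411 gene names on 40628 probes. Each gene was read on its brightest probe. Of the 40 genes 11 code for fibrillar collagens, 8 for collagens of basement membranes, 3 for type VI collagen and 18 for other types. In 36 of the 40 the probe passed the scanner software's test of being well above background on 20 or more of the 39 arrays, and 37 were bright enough to be tested.

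Collagens are matrix proteins built from alpha chains wound into a triple helix, and the chains of a type come from separate genes. Fibrillar collagens (types I, II, III, V, XI, XXIV and XXVII) assemble into the fibres that carry tension in connective tissue. Type IV collagen forms the sheet of the basement membrane, which wraps every adipocyte and every capillary, with types XV and XVIII at its border. Type VI collagen forms beaded filaments in the matrix around fat cells, and Col6a3 codes for the chain from which the fragment endotrophin is cut. In adipose tissue fibroblasts and adipocyte progenitors are known as the main source of fibrillar collagen, and enlarging fat depots on a high fat diet are known for remodelling of the matrix. The remaining types include fibril-associated collagens (such as XII, XIV and XVI), the short network-forming type VIII, the anchoring type VII and the transmembrane types XIII, XVII, XXIII and XXV.

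The mice were put on their diets at 3 to 4 weeks of age, right after weaning. LFC mice ate a low fat diet with 10% of calories from fat and HFC mice a diet high in sucrose with 60% of calories from fat. HF5, HF20 and HF75 mice were also fed like HFC mice and got KAL-1, a botanical formulation, at 5, 20 and 75 µg. Total RNA was hybridised with Cy3 to 39 Agilent one-colour arrays, 11 for LFC (days 1, 6, 10 and 14 and weeks 0, 3, 6, 9, 12, 15 and 18), 10 for HFC (the same without day 1) and 6 each for HF5, HF20 and HF75 (weeks 3 to 18). The study counted weeks from day 14. The series' design text speaks of 3 biological replicates, but there was 1 array for each diet and time point. The labels do not say whether animals were pooled on it, and time points stand in for replicates in every test. Between diets each time point's own level was taken out first. A difference was then tested against how far the differences between diets varied from time point to time point. Late against early within a diet was tested against the spread between time points of the same period. All 8 adipocyte markers were well above background on every array. In bulk tissue a lower level from fewer cells of a type and from less RNA per cell cannot be told apart.

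The level of a gene is given throughout as log2 of the background-corrected spot signal minus the 75th percentile of the same array, so that 0 is the signal of that percentile. Levels of different genes come from different probes and are not compared with each other. Days 1 to 14 and week 0 are called early, and weeks 3 to 18 late. The LFC array of week 3 and the HFC array of week 12 stood apart from the others. On these arrays 97.05% and 94.5% of spots were well above background, against 53.7% to 79.6% on the other 37 arrays, and 16431 and 10531 spots were marked as outliers, against 21 to 387. Of the 36 brighter collagen genes 12 had no usable spot on the LFC array of week 3 and 5 had none on the HFC array of week 12. Medians over the collagen genes are given with and without them. Counts, class medians and single genes are given without them only where this is stated. The genes that lead the KAL-1 comparisons are given with all arrays only.

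The start regions of the 4 genes below are shown because they code for major chains of fibrillar and basement membrane collagen. They run from 250 bases before to 50 after the gene start on build GRCm38.p6 (RefSeq), written 5′ to 3′ on the gene's strand. The tables held such a region for 32 of the 40 genes and none for Col1a1, Col2a1, Col4a3, Col5a2, Col9a3, Col12a1, Col14a1 and Col22a1. Capitals mark, on either strand and anywhere in the region, the letters CCAAT (as in a CCAAT box), GGGCGG (as in a GC box) and TATAAA (as in a TATA box). The TATAAA of Col3a1 starts at position −117 from the gene start. Whether a match works as such a box was not tested. The Col4a1 and Col4a2 regions lie on opposite strands and share 78 bases.
Col1a2, chr6:4505368-4505667, forward strand: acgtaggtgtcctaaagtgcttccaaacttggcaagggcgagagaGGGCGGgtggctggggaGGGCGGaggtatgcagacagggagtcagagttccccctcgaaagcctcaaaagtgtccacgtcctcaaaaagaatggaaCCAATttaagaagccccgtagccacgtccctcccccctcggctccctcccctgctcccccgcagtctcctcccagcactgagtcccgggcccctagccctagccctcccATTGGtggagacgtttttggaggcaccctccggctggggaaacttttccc
Col3a1, chr1:45311288-45311587, forward strand: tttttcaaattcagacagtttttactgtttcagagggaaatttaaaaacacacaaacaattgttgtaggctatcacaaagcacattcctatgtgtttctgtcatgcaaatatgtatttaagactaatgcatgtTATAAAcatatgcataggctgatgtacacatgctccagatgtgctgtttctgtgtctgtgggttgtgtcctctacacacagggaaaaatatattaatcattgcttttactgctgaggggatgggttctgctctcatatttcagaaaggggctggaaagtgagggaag
Col4a1, chr8:11312777-11313076, reverse strand: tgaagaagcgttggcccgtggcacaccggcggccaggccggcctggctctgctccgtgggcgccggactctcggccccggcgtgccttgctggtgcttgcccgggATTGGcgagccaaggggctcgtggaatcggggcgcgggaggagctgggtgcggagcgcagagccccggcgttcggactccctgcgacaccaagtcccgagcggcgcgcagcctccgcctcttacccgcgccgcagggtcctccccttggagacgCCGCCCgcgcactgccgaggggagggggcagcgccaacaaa
Col4a2, chr8:11312555-11312854, forward strand: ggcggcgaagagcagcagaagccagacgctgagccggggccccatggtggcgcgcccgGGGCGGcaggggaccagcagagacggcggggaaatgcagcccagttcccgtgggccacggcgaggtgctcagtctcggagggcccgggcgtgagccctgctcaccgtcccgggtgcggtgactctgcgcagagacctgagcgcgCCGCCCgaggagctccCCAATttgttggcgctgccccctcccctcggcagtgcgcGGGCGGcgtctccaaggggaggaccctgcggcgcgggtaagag
The Col1a2, Col4a1 and Col4a2 regions held CCAAT and GGGCGG, and the Col3a1 region held TATAAA and neither of the others. Over 35 collagen start regions GGGCGG was present in 20 (57.1%), against 35.7% of all 32851 regions of this length. CCAAT was present in 12 (34.3%, against 37.4%) and TATAAA in 5 (14.3%, against 13.6%). Col4a1 and Col4a2 both lie at 8 A1.1, Col6a1 and Col6a2 at 10 41.1 cM, Col4a3 and Col4a4 at 1 C5, and Col3a1 at 1 C1.1 beside Col5a2 at 1 C1, per the array annotation.

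**Figure D1:**
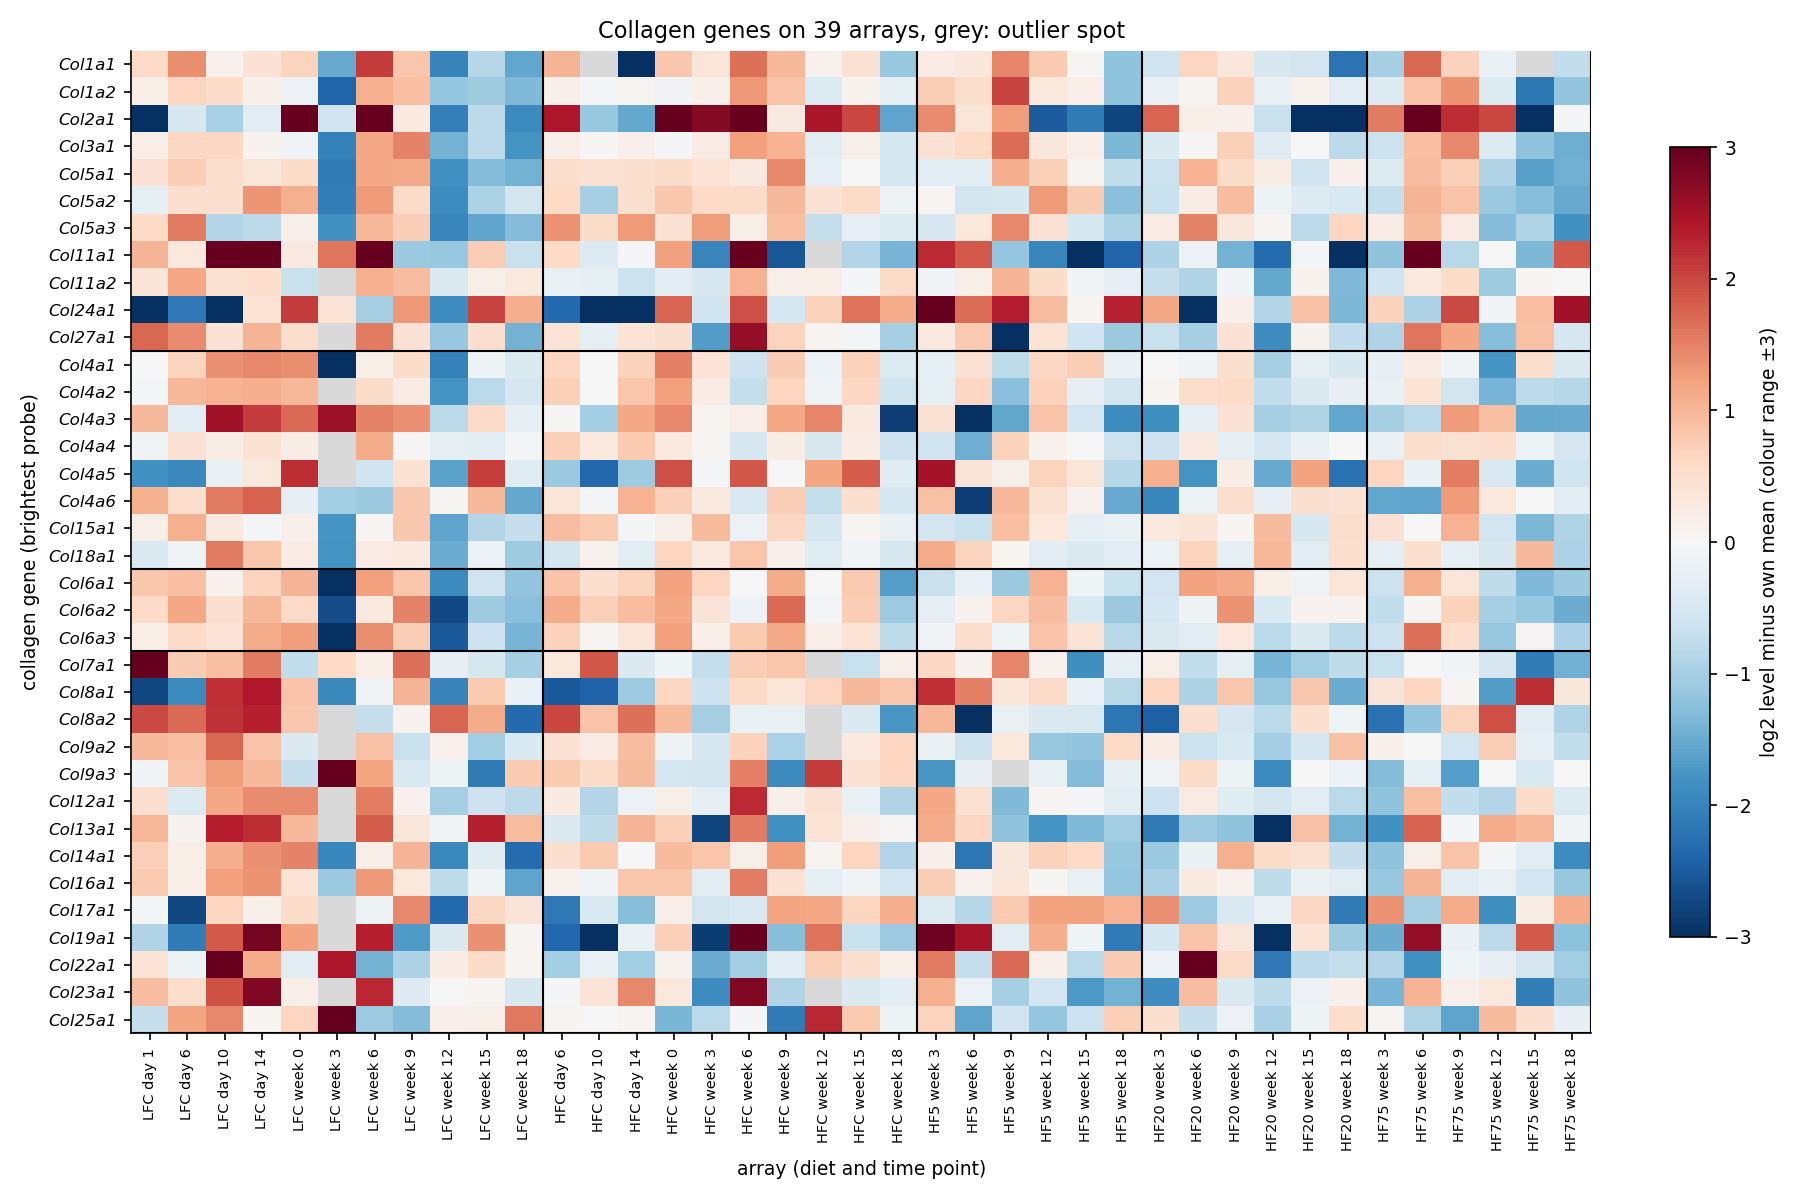
Level of 36 collagen genes (rows, set in 4 classes) on 39 arrays (columns, by diet and time point), each as its log2 difference from the gene's own mean, with colours capped at 3 in either direction and grey where the spot was marked as an outlier. Red is above and blue below the gene's mean, the LFC arrays of weeks 3 and 12 are blue in most fibrillar, basement membrane and type VI genes, and the LFC array of week 3 has 12 grey cells.

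How collagen expression ran over time on the control diet was asked within LFC, with 6 late arrays against 5 early ones. All 15 genes described in every comparison were lower late than early, with log2 differences from −1.94 (Col4a1) to −0.56 (Col8a1), and none passed the test. The class medians were −0.95 for 11 fibrillar genes, −1.04 for 8 basement membrane genes, −1.66 for 3 type VI genes and −0.72 for 15 other genes, and stayed below 0 with median scaling, quantile normalisation and normexp background correction. Over all 37 genes tested 30 were lower and 7 higher, with a median of −0.97, where the median of all 30418 probes tested was −0.09 with 43.7% higher. The number called was 0 of 37, where 0.49% of all probes were called (limma, adjusted p under 0.05). An unadjusted p under 0.05 was found for 8 of 37 by limma and for 5 by the methods' t-test, which also called 0. That t-test was run here over time points, not within a time point as in the study. The number of all probes with such a p is given only within HFC. Elsewhere these counts are not read as an excess among collagen genes.

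Col4a1 and Col4a2 code for the paired chains of the most widespread type IV collagen. Col4a1 read 3.82, 4.47, 5.18, 5.26 and 5.21 on the early LFC arrays and −0.09, 3.98, 4.38, 1.78, 3.65 and 3.38 on the late ones, in order of time. The early arrays were highest, but weeks 6 and 9 lay within their range. The difference was −1.94 (SE 0.73, adjusted p = 0.74), and −1.35 without week 3. Col4a2 read 3.62, 4.67, 4.71, 4.76 and 4.65 early and 4.21, 3.92, 1.90, 2.86 and 3.16 late, with no usable spot at week 3, and differed by −1.27 (SE 0.47, adjusted p = 0.74). Both were lowest at week 12 among the arrays on which both were read.

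The 3 type VI genes had the lowest class median. Col6a2 read 1.60, 2.18, 1.50, 2.02 and 1.61 on the early LFC arrays and −1.64, 1.32, 2.51, −1.69, −0.05 and −0.23 on the late ones. Week 9 was above every early array, week 6 just below the lowest of them, and the other 4 late arrays were lower still. Col6a1 differed by −1.64 (SE 0.78) and Col6a3 by −1.66 (SE 0.76), with adjusted p of 0.92 and 0.90, and Col6a2 by −1.75 (SE 0.69, adjusted p = 0.80). Without the LFC array of week 3 the class median was −1.19, and the value of Col6a2 was −1.41.

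Among fibril-associated collagens, Col14a1, whose product binds to the surface of collagen fibrils, had the smallest p of all collagen genes within LFC. It read 2.41, 1.89, 2.77, 3.06 and 3.18 early and −0.27, 1.89, 2.69, −0.24, 1.32 and −0.62 late. Week 9 lay within the early range, week 6 was level with day 6, the lowest early array, and the other 4 late arrays were below it. The difference was −1.87 (SE 0.61, adjusted p = 0.53), and −1.66 without week 3. Col16a1, of the same family, differed by −1.12 (SE 0.50, adjusted p = 0.89).

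The probes of the major fibrillar genes reached the top of the scanner's range. The Col1a2 probe, the only one of its gene, was saturated on 21 of 39 arrays, including all 5 early LFC arrays and all 4 early HFC arrays, the brightest Col3a1 probe on 20 and the brightest Col1a1 probe on 5. For Col1a2 the measured means were 5.17 on late LFC arrays, 1 of 6 of them saturated, and 6.11 on early ones (adjusted p = 0.93), and with saturated arrays on both sides no bound on the fold is given. The second brightest probes of Col1a1 and Col3a1, which code for the major chains of types I and III, were never saturated. The second Col1a1 probe read 1.87, 2.52, 2.60, 3.52 and 3.01 early and 0.31, 3.92, 1.96, −1.31, −0.43 and −0.74 late in LFC. Week 6 was the highest array of all and weeks 12, 15 and 18 the lowest. On this probe Col1a1 differed by −2.09 (SE 0.82, adjusted p = 0.80), against −1.14 (SE 0.69, adjusted p = 0.93) on the brightest probe. The second Col3a1 probe differed by −1.58 (SE 0.71, adjusted p = 0.89), against −0.85 (SE 0.64, adjusted p = 0.93). Col5a1 and Col5a2, whose type V chains start fibrils, differed by −1.24 (SE 0.62) and −1.22 (SE 0.61), with an adjusted p of 0.92 and 0.92.

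The late arrays of LFC were not alike. The median of 36 collagen genes, each set against its own mean over 39 arrays, was −1.78 at week 3, 1.07 at week 6, 0.57 at week 9, −1.29 at week 12, −0.26 at week 15 and −0.68 at week 18, and 0.40 to 1.02 on the 5 early arrays. The median of all probes on the same scale was −0.77 at week 3 and −0.07 to 0.13 on the other 10 LFC arrays. The week 3 array is the one that stands apart in quality, while week 12 was within the range of the others in every quality measure. Without week 3 the late minus early medians were −0.94 for the collagen genes (5 of 36 higher), −0.76 for fibrillar, −0.89 for basement membrane and −0.97 for other genes. Without week 6 the median of the collagen genes was −1.27, with an unadjusted p under 0.05 for 18 of 36 genes. Late and early arrays differ in the age of the mice, in time on the diet and in scan date, and these cannot be told apart. With scan date as a random block the median was −1.02 in LFC and −0.23 in HFC, and with week 0 as the only early array it was −0.83 and −0.43.

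**Figure D2:**
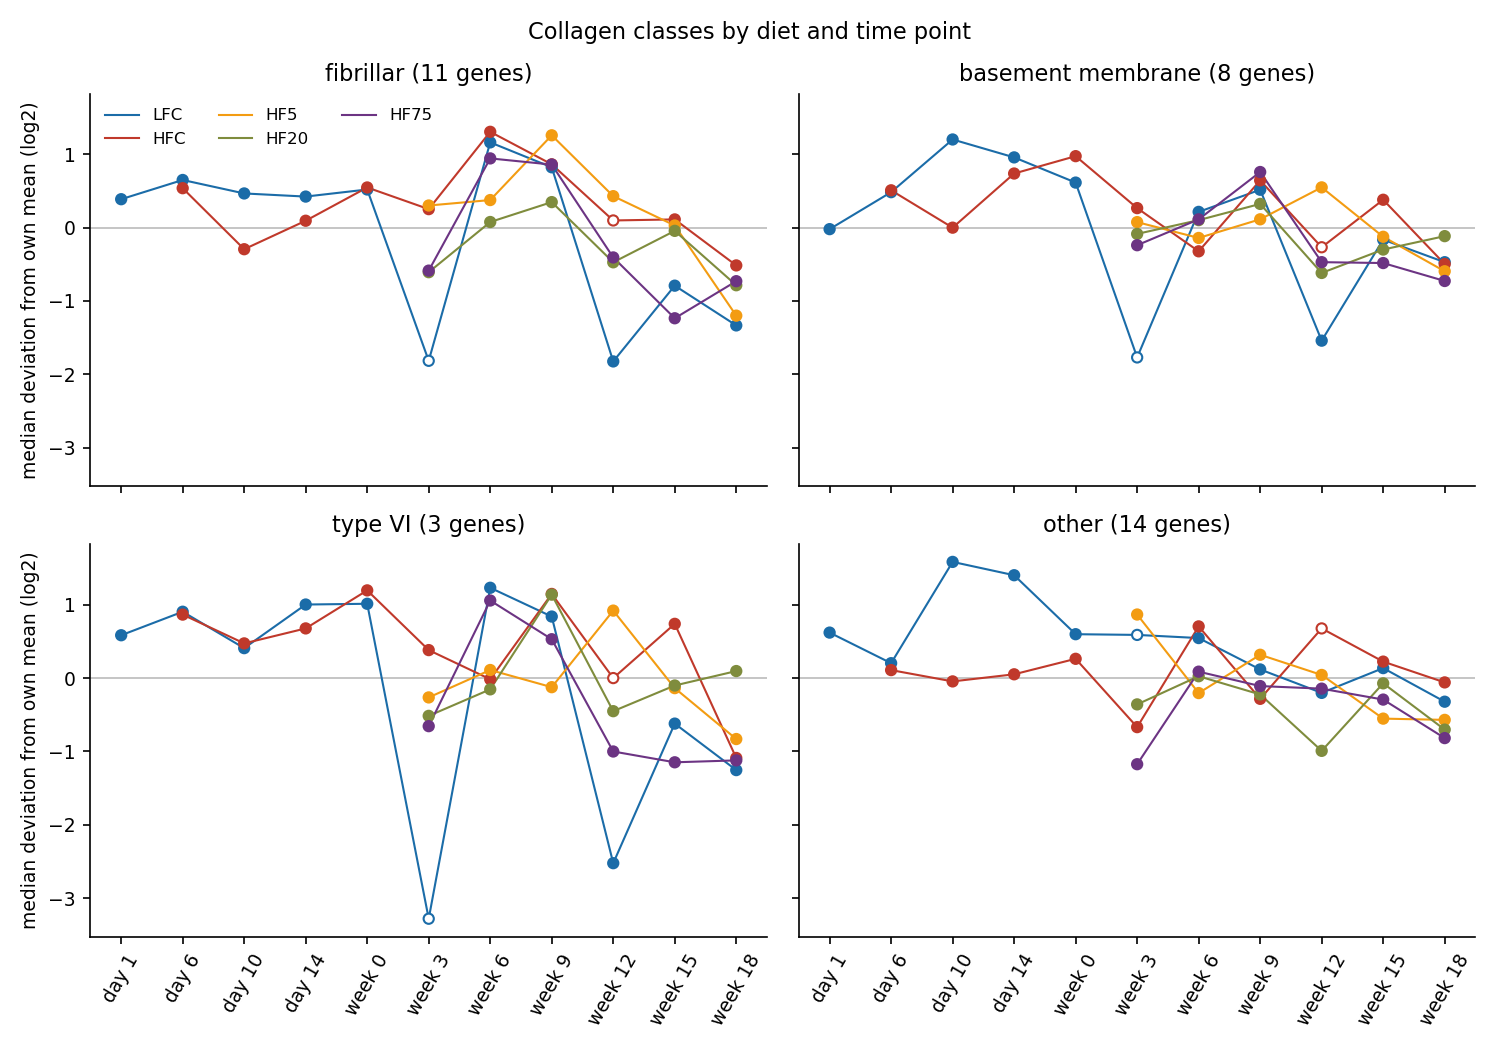
Median over the genes of each collagen class of the log2 level minus the gene's own mean (y axis) at each time point (x axis), 1 line per diet, with open points for the LFC array of week 3 and the HFC array of week 12. In LFC the fibrillar, basement membrane and type VI classes lie below −1.5 at weeks 3 and 12 and above 0 at weeks 6 and 9, and other collagens do not follow them at week 3.

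Within HFC the same contrast, 6 late arrays against 4 early ones, gave both signs. Of 37 genes 21 were lower and 16 higher, with a median of −0.21 (0.03 and 51.9% higher for all 30581 probes tested). The class medians were −0.66 for type VI, −0.44 for basement membrane, −0.07 for other and 0.27 for fibrillar genes, the last being −0.29 with quantile normalisation. None of 37 was called, where 0% of all probes were called by limma, and 5 had an unadjusted p under 0.05 by limma and 5 by the methods' t-test, which called 0. Of the 30581 probes 5152 had such a p. With array weights 7 of 37 were called, where 25.9% of all probes were, with a linear trend 3 of 37 (8.3% of all probes) and without week 0 also 3 of 37 (2.48% of all probes). Without the HFC array of week 12 the median was −0.19, with 15 of 37 higher. The sign of the major fibrillar genes depended on the probe: Col1a1 differed by 1.02 (SE 0.99, adjusted p = 0.58) on its brightest and by −0.55 (SE 0.54, adjusted p = 0.58) on its second probe, and Col3a1 by 0.22 and −0.55. The brightest Col1a1 probe read 1.24 at day 14 and 3.78 to 6.57 on the other HFC arrays. Its second probe read 1.81 at day 14 and 0.77 to 3.84 on the others.

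Type VIII collagen is a heterotrimer or homotrimer of the chains from Col8a1 and Col8a2, and the late minus early differences of these genes in HFC had opposite signs. Col8a2 read 0.00, −1.16, −0.34 and −1.05 early and −3.00, −2.22, −2.23, −2.44 and −3.75 late, with no usable spot at week 12. The early and late arrays did not overlap. The difference was −2.09 (SE 0.41, adjusted p = 0.21), the smallest p of any collagen gene in any comparison. Col8a1 read 0.49, 0.57, 1.93 and 3.63 early and 2.40, 3.57, 3.38, 3.64, 3.97 and 3.84 late. It was lowest at days 6 and 10, and week 0 was within the late range. The difference was 1.81 (SE 0.59, adjusted p = 0.23), and with week 0 as the only early array it was −0.17.

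In LFC, Col8a2 read −0.01, −0.30, 0.15, 0.34 and −1.19 early and −2.71, −1.90, −0.25, −0.88 and −4.34 late, with no usable spot at week 3, and differed by −1.81 (SE 0.69, adjusted p = 0.78). Weeks 12 and 15 lay within the early range. Col8a1 in LFC stood at 0.27 on day 1, 1.09 on day 6, 5.19 on day 10 and 5.41 on day 14, then 3.86 at week 0 and 1.08, 2.90, 4.02, 1.01, 3.80 and 2.82 late. Days 10 and 14 were its highest LFC arrays, and the late minus early difference of −0.56 (SE 0.98, adjusted p = 0.96) became 0.33 on its second brightest probe.

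Other members with a small p within HFC were Col17a1, which codes for a transmembrane collagen of hemidesmosomes, Col4a4 and Col24a1. Col17a1 differed by 1.44 (SE 0.53, adjusted p = 0.25). Col4a4 read −0.24, −0.65, −0.19 and −0.67 early and −0.92, −1.48, −0.75, −1.46, −0.74 and −1.60 late, with a difference of −0.72 (SE 0.27, adjusted p = 0.25). These groups did not overlap, as for Col8a2. The share of all probes without overlap is not given, so this is not read as a trait of collagen genes. Col24a1, a minor fibrillar collagen, differed by 2.80 (SE 1.04, adjusted p = 0.25) in HFC and by 2.02 (SE 1.20, adjusted p = 0.93) in LFC. Col2a1, the fibrillar collagen of cartilage, read from −5.32 to 2.93 in LFC and from −2.26 to 3.00 in HFC.

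**Figure D3:**
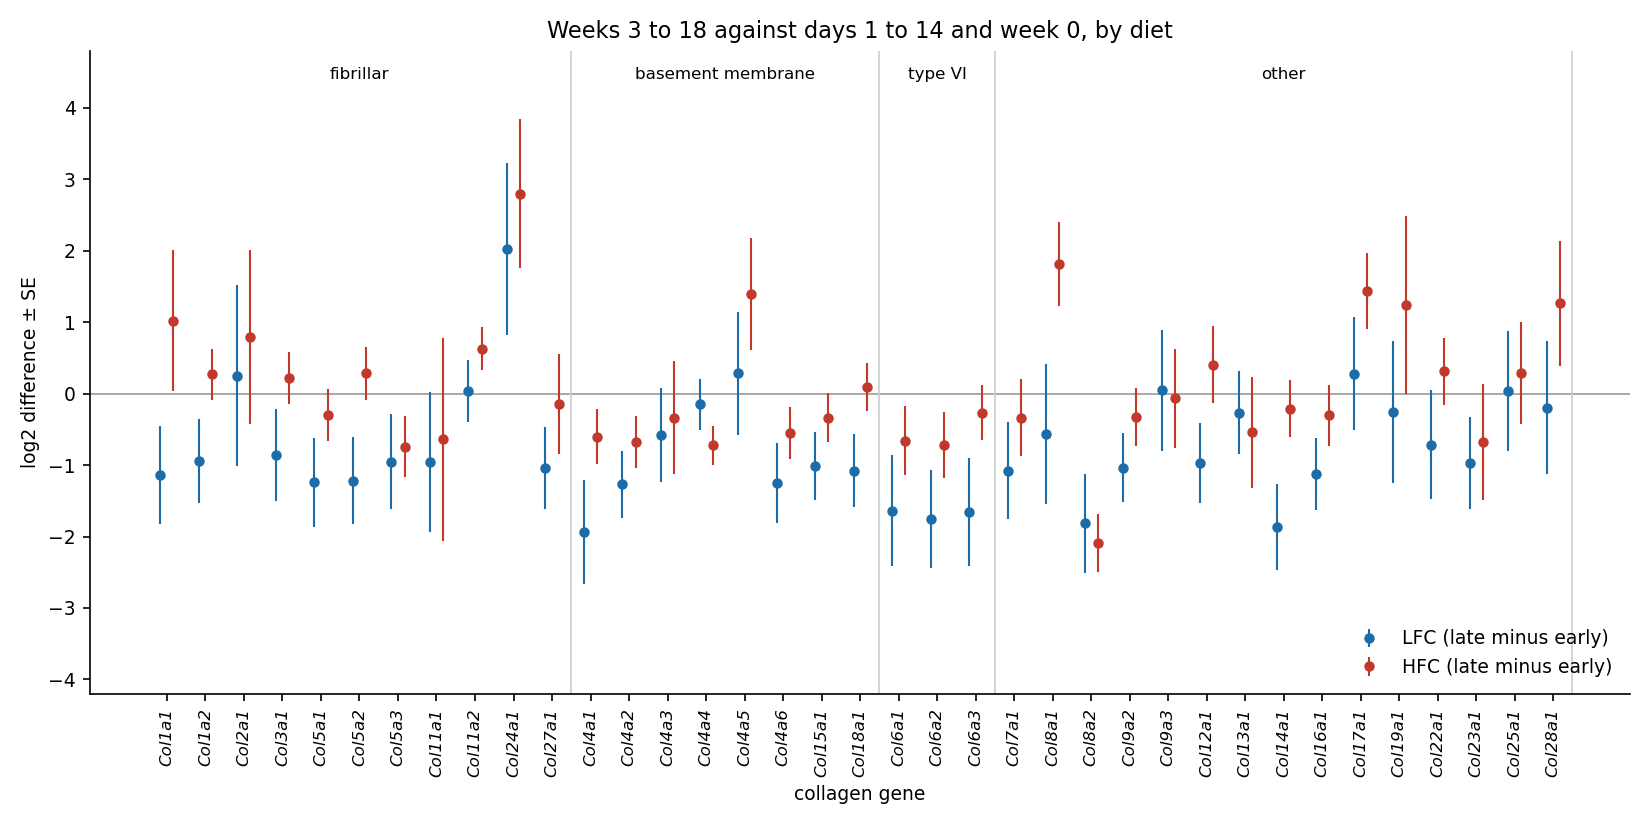
Late minus early log2 difference ± SE (y axis, limma) for 37 collagen genes (x axis, by class) in LFC (blue, 6 against 5 arrays) and HFC (red, 6 against 4 arrays). The blue points lie below 0 for 30 genes and the red points for 21, and no difference passed an adjusted p of 0.05.

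Markers of dividing cells and of mesothelium are given beside the late minus early values. The summed linear level of 8 cell cycle genes, relative to each array's 75th percentile, had a lowest, median and highest value of 9.73, 15.2 and 23.9 on early LFC arrays and 1.32, 4.20 and 6.83 on late ones. In HFC it was 6.79, 16.2 and 29.3 early and 3.65, 6.21 and 6.74 late. Of the 8 genes 5 were called within LFC, where 0.49% of all probes were called, and 0 within HFC, where 0% were. The sum of 6 mesothelium markers had a median of 22.9 (9.49 to 38.3) early and 10.2 (1.40 to 21.9) late in LFC. In HFC it was 23.9 (17.9 to 35.2) early and 10.3 (4.00 to 27.0) late, so that early and late overlapped in both diets. All 6 had a negative difference in both diets, with 0 of 6 called by limma and 1 (LFC) and 3 (HFC) with an unadjusted p under 0.05. The sum of 8 fibroblast and progenitor markers had a median of 162 (111 to 237) early and 171 (85.7 to 338) late in LFC and of 147 (135 to 148) and 195 (114 to 323) in HFC. This sum holds Dcn, whose probe was saturated on 34 of 39 arrays, and over the other 7 genes the medians were 97.0 (49.7 to 112) and 72.1 (34.8 to 171) in LFC and 81.9 (75.5 to 95.4) and 87.1 (70.6 to 201) in HFC. Contractile, endothelial and macrophage markers overlapped between early and late in both diets. Epididymis markers, at most 106 in sum, ranged from 0.128 to 106 on early and from 0.113 to 79.9 on late LFC arrays. The part of these cells in the collagen values was not tested.

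The effect of the high fat, high sucrose diet was asked over the 10 time points that LFC and HFC share, with time point as a block. Of 37 collagen genes 21 were higher in HFC and 16 lower, with a median of 0.04, where the median of 29168 probes was 0.03 with 53.6% higher. The class medians were 0.41 (fibrillar, 8 of 11 higher), 0.13 (basement membrane, 6 of 8), 0.69 (type VI, 3 of 3) and −0.19 (other, 4 of 15 higher). None was called by limma, where 0% of all probes were called, and 5 of 37 had an unadjusted p under 0.05 by limma and 2 by the methods' t-test, which called 0. Without the LFC array of week 3 and the HFC array of week 12 the fibrillar median was −0.11, the basement membrane median −0.13 the type VI median 0.06 and the other median −0.29, and 13 of 37 genes were higher.

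The 3 genes with the smallest p were Col13a1, Col5a3 and Col11a1. Col13a1, a transmembrane collagen, was lower in HFC at 8 of 9 time points with both values, with a mean difference of −1.12 (SE 0.36, adjusted p = 1.00), and −1.32 without the 2 arrays. Col5a3, a chain of type V collagen, was higher at 8 of 10 time points by 0.95 (SE 0.34, adjusted p = 1.00), and by 0.64 without those 2 arrays. Col11a1, a minor fibrillar chain, had a difference of −1.32 (SE 0.54, adjusted p = 1.00), with a probe well above background on 22 of 39 arrays.

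The diet difference was not the same at each time point. The median over the collagen genes of the HFC minus LFC difference was −0.17 at day 6, −1.11 at day 10, −0.80 at day 14, 0.07 at week 0, 2.17 at week 3, 0.16 at week 6, −0.06 at week 9, 1.86 at week 12, 0.50 at week 15 and 0.38 at week 18. At day 10, 6 of 35 genes were higher in HFC, and at week 12, 29 of 31. The 2 largest medians fell at the time points that hold the 2 arrays of poor quality. At week 12 the poor array was that of HFC, where the median of the collagen genes relative to their own means was 0.13. On the LFC array of week 12, within the range of the others in quality, it was −1.29. Day 10 and day 14 were times at which LFC read high in basement membrane and other collagens, with LFC class medians of 1.20 and 0.96 for basement membrane genes and 1.58 and 1.40 for other genes relative to their own means.

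**Figure D4:**
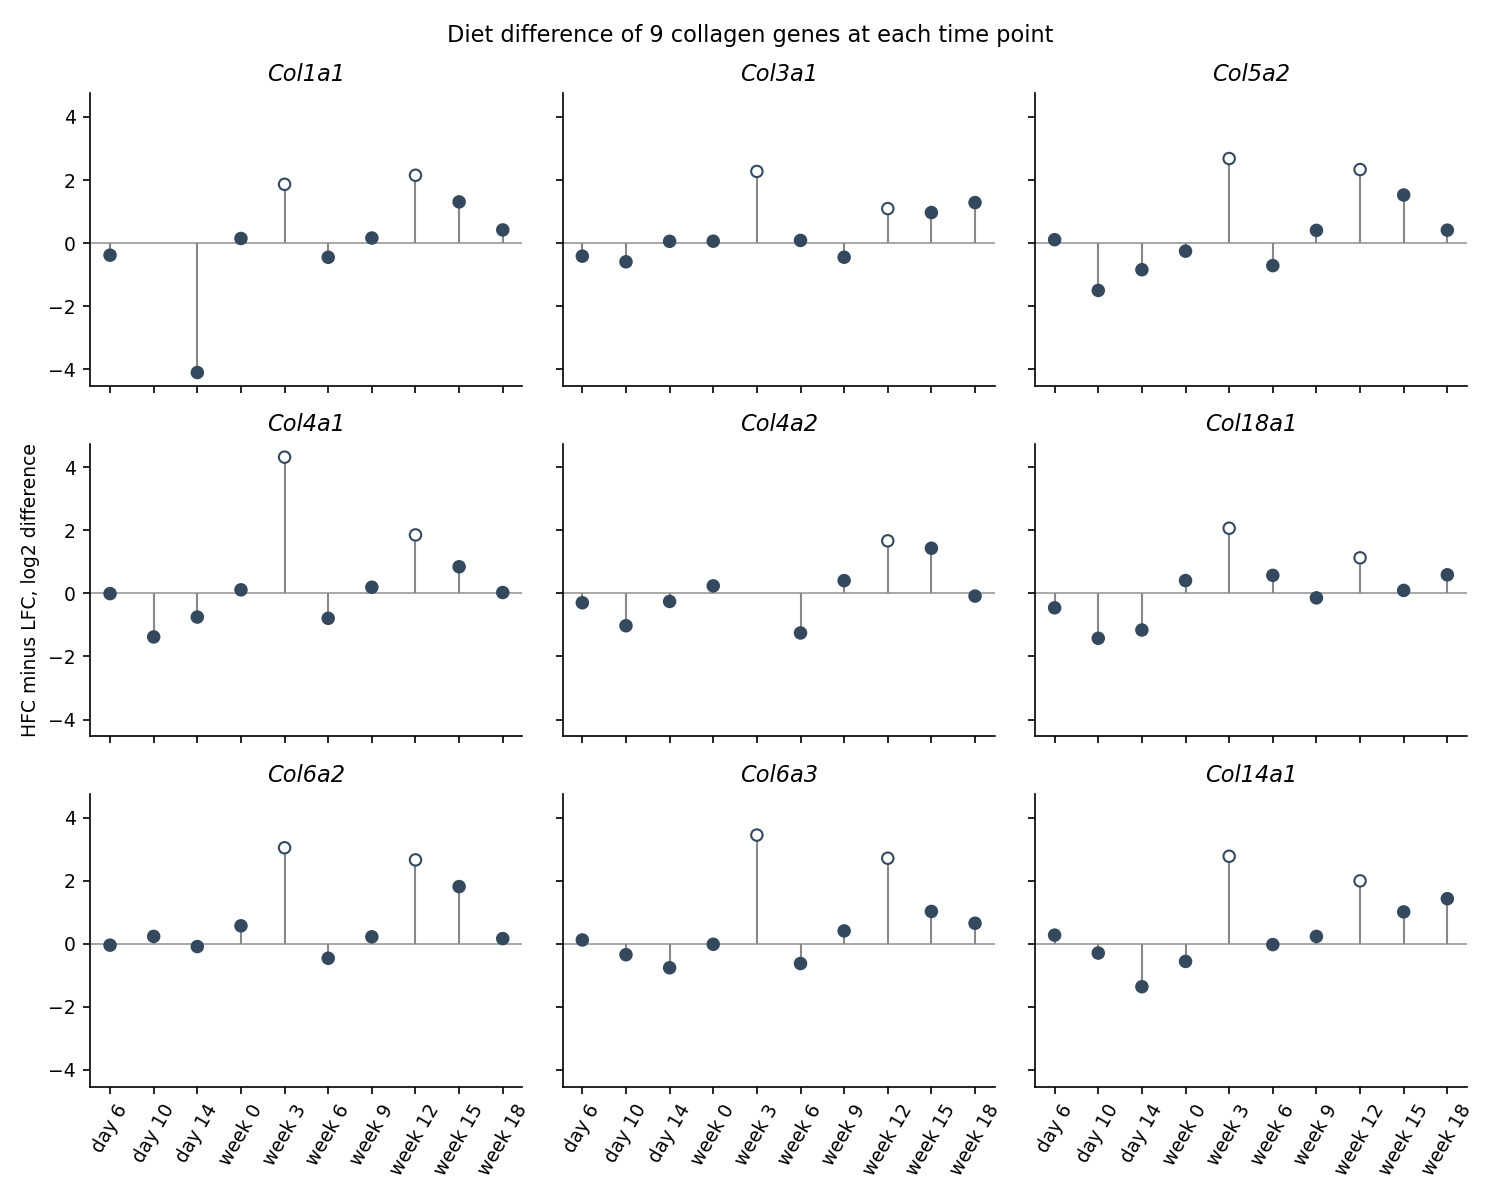
HFC minus LFC log2 difference (y axis) at each of 10 time points (x axis) for 9 collagen genes, 1 panel per gene, with 1 array per diet behind each point and open points at weeks 3 and 12, where an array stood apart in quality. Every point at weeks 3 and 12 is above 0, and of the genes with a value at day 10 only Col6a2 is above 0 there.

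Over weeks 3 to 18, in a fit that also held the KAL-1 arrays, all 15 genes described in every comparison were higher in HFC than in LFC, by 0.45 (Col16a1) to 1.27 (Col6a3), and none passed the test. Of 37 genes 25 were higher, with a median of 0.45, where the median of 31450 probes was 0.06 with 57.5% higher. The class medians were 0.91 for fibrillar (9 of 11 higher), 0.51 for basement membrane (6 of 8), 1.24 for type VI (3 of 3) and −0.08 for other genes (7 of 15), the last being 0.15 with median scaling and 0.05 with normexp. None was called by limma (0% of all probes were). An unadjusted p under 0.05 was found for 12 of 37 by limma and for 2 by the methods' t-test, which called 0. How many of all probes had such a p is not given here, so the 12 are not read as an excess. Without the 2 arrays the median was 0.32, with 26 of 37 higher and 2 with such a p, and the class medians were 0.69, 0.37, 0.74 and 0.15.

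Col6a2 and Col6a3 had 2 of the 3 smallest p, with differences of 1.24 (SE 0.42, adjusted p = 1.00) and 1.27 (SE 0.45, adjusted p = 1.00). Col6a2 read 1.40, 0.87, 2.73, 0.97, 1.76 and −0.07 on the late HFC arrays, against −1.64, 1.32, 2.51, −1.69, −0.05 and −0.23 on the late LFC arrays. It was higher in HFC at 5 of 6 weeks, by 3.05 at week 3 and 2.66 at week 12, and the groups overlapped. Without the 2 arrays the difference was 0.91 for Col6a2 and 0.74 for Col6a3. Col14a1 read 2.51, 1.87, 2.93, 1.76, 2.33 and 0.81 in HFC and was higher at 5 of 6 weeks by 1.24 on average (SE 0.44, adjusted p = 1.00), and by 1.17 without those arrays. Of the major fibrillar genes, Col1a1 differed by 0.91 (SE 0.37) on its brightest probe and 1.23 (SE 0.52) on its second, and Col3a1 by 0.88 (SE 0.33) and 1.14 (SE 0.50), with adjusted p of 1.00 for all 4 values. Without the 2 arrays the brightest probes gave 0.75 and 0.67. Col1a2 was higher by 0.95 (SE 0.39, adjusted p = 1.00), with 4 of the 6 HFC arrays saturated.

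Whether the diet difference itself changed between early and late was tested on the 10 paired differences. It was higher late than early for 36 of 37 collagen genes (34 with median scaling), with a median of 1.07, where the median of 29168 probes was 0.15 with 59.2% higher. The class medians were 1.1 for fibrillar (11 of 11 higher), 0.74 for basement membrane (7 of 8), 1.07 for type VI (3 of 3) and 0.89 for other genes (15 of 15). No gene was called by limma, where 0% of all probes were called, 8 of 37 had an unadjusted p under 0.05 by limma and 8 by the methods' t-test, which called 0. Without the 2 arrays the median was 0.68, with 33 of 37 higher, and the class medians were 0.70, 0.52, 0.27 and 0.89. Col4a4 was the 1 gene with a negative value, −0.53 (SE 0.47, adjusted p = 0.88).

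Col8a1 had the smallest p of that test. Its HFC level minus its LFC level was −0.61, −4.62, −3.48 and −0.23 at days 6, 10 and 14 and week 0, and 1.31, 0.67, −0.64, 2.63, 0.18 and 1.03 late. All 4 early differences were negative and 5 of 6 late ones positive. The late minus early value was 3.10 (SE 0.91, adjusted p = 0.84), and 2.54 without the 2 arrays. Col14a1 (1.72, SE 0.58) and Col18a1 (1.38, SE 0.52) followed, both with an adjusted p of 0.84, at 1.15 and 0.94 without the 2 arrays. Col18a1 codes for the collagen of vascular basement membranes from which endostatin is cut.

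The 3 doses of KAL-1 were each compared with HFC over weeks 3 to 18, and these comparisons share the 6 HFC arrays with each other and with the diet comparison. Of 37 collagen genes 30 were lower in HF5, 31 in HF20 and 30 in HF75, with medians of −0.20, −0.44 and −0.40, where all 31450 probes had medians of −0.03, −0.07 and −0.01. With median scaling 13, 22 and 21 genes were lower and the medians were 0.18, −0.15 and −0.11, while those of all probes moved to 0.32, 0.24 and 0.34. None was called at any dose by limma, where 0% of all probes were called in HF5, 0% in HF20 and 0% in HF75. The counts with an unadjusted p under 0.05 were 1, 5 and 1 by limma and 2, 5 and 6 by the methods' t-test, which called 0 at each dose. Without the LFC array of week 3 and the HFC array of week 12 the medians were −0.18, −0.39 and −0.40. Without week 6 the HF5 median was 0.01. No order of the doses was tested.

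By class, the fibrillar median was −0.13 in HF5, −0.73 in HF20 and −0.54 in HF75, with 8, 10 and 8 of 11 genes lower, and with median scaling it was 0.26, −0.37 and −0.14. The basement membrane medians were −0.20, −0.09 and −0.38, and turned to 0.18, 0.27 and 0.02 with median scaling. The type VI medians were −0.28, −0.18 and −0.55, and 0.10, 0.17 and −0.15 with median scaling. Of the 15 genes described in every comparison all were lower in HF75, with differences from −0.96 (Col5a2) to −0.13 (Col8a1), while 12 were lower in HF20 and 11 in HF5, counts that with median scaling became 10 in HF75, 6 in HF20 and 3 in HF5.

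Col2a1 had the smallest p in HF5 and in HF20. It read 2.08, 3.00, −0.41, 1.77, 1.31 and −2.26 in HFC and 1.06, −0.51, −0.52, −1.35, −5.65 and −6.47 in HF20. It was lower in HF20 at 6 of 6 weeks, with differences from −6.96 at week 15 to −0.11 at week 9, and the groups overlapped. The difference was −3.16 (SE 0.87, adjusted p = 0.78). In HF5 it read 0.74, −0.31, 0.57, −3.17, −2.81 and −3.44, a difference of −2.32 (SE 0.87, adjusted p = 0.95). After it in HF5 came Col9a3, a fibril-associated chain of cartilage, at −1.33 (SE 0.71, adjusted p = 0.95), which became 1.25 with outlier spots kept, and Col4a3 at −1.08 (SE 0.64, adjusted p = 0.95). In HF75 Col2a1 read 0.87, 2.99, 1.54, 1.32, −4.54 and −0.71, a difference of −0.67 (SE 0.87, adjusted p = 1.00). Across all 39 arrays Col2a1 spanned 9.47 log2 units, the widest range of the 40 genes.

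The other genes with the smallest p in HF20 were Col11a2, a minor fibrillar chain, at −0.99 (SE 0.29, adjusted p = 0.78) and Col28a1. The Col28a1 probe was not well above background on any of the 6 HF20 arrays and was above it on 4 of 6 HFC arrays. Its measured means were −8.19 and −5.82 (limma adjusted p = 0.78). With readings below background in both diets no bound on the fold is given, and HF20 was higher at 1 of 6 weeks. Col1a1 was lower in HF20 at 6 of 6 weeks, with values from −1.07 to −0.61 and a fitted difference of −0.88 (SE 0.37, adjusted p = 0.78). Col5a2 and Col6a3 were also lower at 6 of 6 weeks, with differences of −0.59 and −0.73 and an adjusted p of 0.78 each. Their smallest weekly differences were −0.039 and −0.027. The share of all probes lower at 6 of 6 weeks is not given, and such counts can change with the scaling. The brightest Col3a1 probe was saturated on 1 or both arrays at 5 of 6 weeks, and its second probe was lower in HF20 at 5 of 6 weeks, with a fitted difference of −0.97 (SE 0.47, adjusted p = 0.78). In HF75 the smallest p were those of Col7a1, the collagen of anchoring fibrils, at −0.83 (SE 0.36, adjusted p = 1.00), Col5a2 at −0.96 (SE 0.47, adjusted p = 1.00) and Col6a2 at −0.86 (SE 0.42, adjusted p = 1.00). Col14a1 was lower in HF75 at 6 of 6 weeks, by as little as −0.018 in 1 of them, with a difference of −0.76 (SE 0.44, adjusted p = 1.00).

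When the 3 doses were averaged and set against HFC, 33 of 37 collagen genes were lower, with a median of −0.30 where that of all probes was −0.02, and with median scaling 18 of 37 were lower, with a median of 0.01 where that of all probes was 0.31. None was called by limma (0% of all probes were), 2 had an unadjusted p under 0.05 by limma, and 3 by the methods' t-test, which called 0. Without the 2 arrays the median was −0.33. The genes with such a p were Col2a1 at −2.05 (SE 0.71, adjusted p = 1.00) and Col28a1 at −1.29 (SE 0.59, adjusted p = 1.00).

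**Figure D5:**
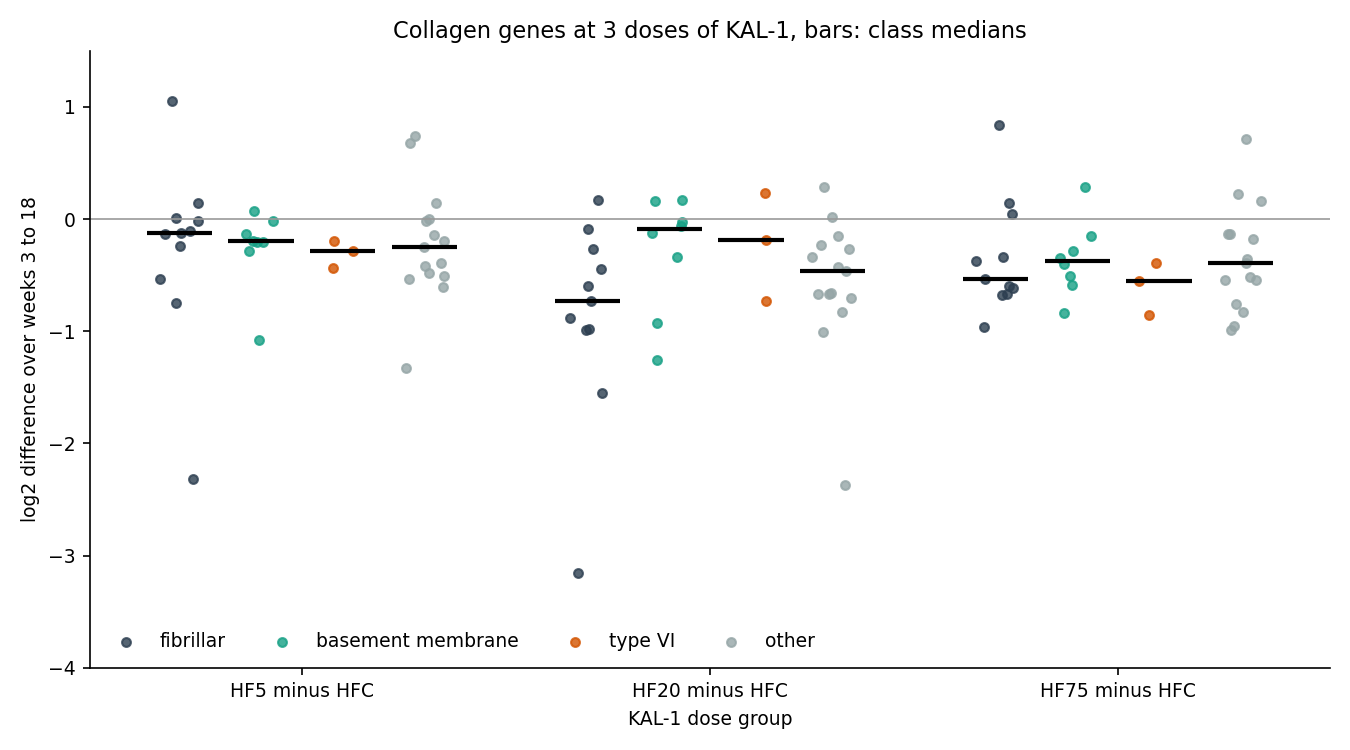
Log2 difference from HFC over weeks 3 to 18 (y axis) of 37 collagen genes in HF5, HF20 and HF75 (x axis), 1 point per gene, coloured by class, with a black bar at each class median. The class medians lie between −0.73 and −0.09, Col2a1 is the lowest point in HF5 and HF20, and no difference passed the test.

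Genes that make, cut, link or bind collagen were read as a list of 56 tested genes. In LFC 45 of 56 were lower late than early (median −0.65, and −0.32 without week 3), and in HFC 34 were higher and 22 lower (median 0.15, and −0.11 with median scaling). Over the 10 time points 47 of 56 were higher in HFC than in LFC (median 0.27), and 26 of 56 without the 2 arrays (median −0.01). Over weeks 3 to 18, 53 of 56 were higher in HFC than in LFC (median 0.65). Without the 2 arrays 50 of 56 were (median 0.31), and 1 had an unadjusted p under 0.05 by limma. With all arrays the higher genes held all 14 modifying and folding genes, all 5 crosslinking genes, all 9 fibril-associated genes and all 7 basement membrane partners. These counts by kind are not given without the 2 arrays. The shares of all probes higher in HFC are given above with each comparison. The diet difference was higher late than early for 51 of 56 (median 0.91, and 0.53 without the 2 arrays). None of 56 was called in any comparison by limma or by the methods' t-test, and 1 (HF5) to 13 (HFC against LFC over weeks 3 to 18, and late against early within HFC) had an unadjusted p under 0.05 by limma. Against HFC, 32 were lower in HF5 (median −0.04), 42 in HF20 (−0.23) and 45 in HF75 (−0.34), which with median scaling became 10 (0.34), 21 (0.12) and 25 (0.04). The smallest p of the list were those of Pcolce2, an enhancer of procollagen cleavage, at 2.16 (SE 0.38, adjusted p = 0.21) late against early within HFC, and of Nid2, a nidogen that links laminin to type IV collagen, at −1.26 (SE 0.34, adjusted p = 0.25) within LFC. Loxl2, a collagen crosslinking enzyme, was higher in HFC over weeks 3 to 18 by 1.35 (SE 0.47, adjusted p = 1.00).

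The dimmest members are given by their readings. Col10a1, Col20a1 and Col9a1 were not tested and were well above background on 4, 5 and 6 of 39 arrays. Col10a1 read −1.83 and Col20a1 −2.35 on the LFC array of week 3, their highest values, and −2.92 to −9.53 and −5.62 to −9.36 on the other arrays. Col28a1 was above background on 13 arrays and Col11a1 and Col19a1 on 22 each.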

How the data were processed

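The deposited scanner files hold the spot intensity of one-colour Agilent arrays, written by Agilent Feature Extraction (version 9.1 in the submitters' processing notes and 10.5.1.1 in the file headers), with local background already subtracted in the processed signal, per the file headers. A deposited table of log2 differences, made by the authors, was used only as an alternative. For each array log2 of the processed signal minus the array's 75th percentile over non-control probes was taken, outlier spots were left out and spots of 1 probe were averaged. Arrays carry no read depth, so that the number of arrays and the signal over background limit the precision.

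Linear models with empirical Bayes moderation were fitted in limma 3.58.1 (R 4.3.3) over all probes that the scanner software put well above background on a minimum of 10 of 20 arrays (HFC against LFC over 10 time points and its early to late test), 6 of 30 (weeks 3 to 18, all diets in 1 fit), 5 of 11 (LFC) or 4 of 10 (HFC), two-sided, with Benjamini-Hochberg adjustment over all probes tested and a threshold of 0.05. Time point was a block in comparisons between diets. The pairing comes from the labelled time point. The deviations of the LFC and HFC arrays of 1 time point correlated from −0.49 to 0.83, above 0.1 for 6 of 10 pairs. The methods' t-test was run on the same values. The scripts were tested on simulated data.

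The collagen genes, the pathway list and the lists of cell markers (adipocyte, fibroblast and progenitor, endothelial, smooth muscle and pericyte, macrophage, mesothelium, epididymis, testis, skeletal muscle, cell cycle) were chosen with earlier results of these data known. Described in every comparison were Col1a1, Col1a2, Col3a1, Col5a1, Col5a2, Col4a1, Col4a2, Col15a1, Col18a1, Col6a1, Col6a2, Col6a3 and the 3 brightest other collagens (Col14a1, Col16a1, Col8a1), with the 3 genes of smallest p where fewer than 3 passed. Genes named for differing at 6 of 6 weeks or not overlapping, Col24a1, and the pathway genes named with values were chosen after their values were seen. Gene names are those of the array, and 36 of 40 collagen accessions matched RefSeq with the same name. Col6a4, Col6a5, Col6a6 and Col26a1 were looked for by name and had no probe under it. The alternatives were median scaling, quantile normalisation, normexp with an offset of 50, outlier spots kept, other filters on dim probes, array weights, no block, scan date as a random block (13 dates, correlation 0.46), a linear trend, the median over a gene's probes, leaving out each time point, leaving out the 2 arrays and, chosen after seeing the data, the second brightest probe and marker sums without the genes saturated on 20 or more arrays.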

Additional observations from a re-analysis of the deposited data

Results flagged for a closer look

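Dixon's test on 90 groups of 5 to 10 arrays (the 10 HFC arrays as 1 group) marked 4 single arrays as far from the rest of their group, where chance marks about 1 in 20 groups. Among early LFC arrays, Col15a1 read 2.36 at day 6, with the next highest at 1.58, and Col4a2 read 3.62 at day 1, with the next lowest at 4.65. Col6a1 read 0.80 at week 18 in HFC, with the next lowest at 2.44. Col6a2 read 2.36 at week 9 in HF20, with the next highest at 1.13.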

How the results depend on the processing

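No collagen gene was called in any of the 9 comparisons under any alternative, except within HFC, where the count of 0 became 7 with array weights, 3 with a linear trend and 3 without week 0, where 25.9%, 8.3% and 2.48% of all probes were called. The cause was not tested. Col8a2 differed there by −2.11, −1.75 and −2.23 under these 3 settings (adjusted p = 0.011, 0.033 and 0.044), Col8a1 by 2.60, 1.91 and 2.47 (0.011, 0.029 and 0.035), and Col17a1 by 1.82 and 1.58 with array weights and a trend (0.021 and 0.032). With week 0 as the only early array Col8a1 was at −0.17.

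The median for the mean of 3 doses was 0.01 with median scaling, which moves the median of all probes from −0.02 to 0.31. Without the replicate block 0 genes were called in each comparison between diets, and 2 (10 time points), 4 (weeks 3 to 18), 0 (HF5), 3 (HF20), 0 (HF75) and 1 (mean of doses) had an unadjusted p under 0.05, so that the pairing changed no call.

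Leaving out each time point gave collagen medians of −0.12 to 0.23 over 10 time points, 0.20 to 0.53 over weeks 3 to 18, −0.34 to 0.01 in HF5, −0.57 to −0.31 in HF20, −0.47 to −0.34 in HF75, −0.43 to −0.24 for the mean of doses, −1.27 to −0.76 in LFC, −0.30 to 0.03 in HFC and 0.86 to 1.19 for the late minus early diet difference, with 0 called except 0 to 3 within HFC. The 12 genes with an unadjusted p under 0.05 over weeks 3 to 18 became 1 without week 3 and 7 without week 12, and the 8 within LFC became 18 without week 6 and 15 without week 9.

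Signs turned over 10 time points, without the LFC array of week 3 and the HFC array of week 12, for Col16a1 (−0.0070), Col18a1 (−0.19), Col1a1 (−0.42), Col4a1 (−0.22), Col4a2 (−0.10) and Col5a2 (−0.11). There Col4a1 was also −0.039 on its second brightest probe and Col4a2 −0.055 with median scaling, and leaving out 1 time point gave −0.043 (week 3) to 0.35 for Col18a1, −0.13 (week 12; also below 0 without weeks 3 and 15) to 0.65 for Col1a1, −0.10 (week 12; also below 0 without week 15) to 0.26 for Col4a2 and −0.71 to 0.10 (day 10) for Col8a1. Over weeks 3 to 18 Col16a1 was −0.076 on its second brightest probe. The late minus early diet difference of Col6a1 was −0.12 with array weights and −0.14 without the 2 arrays. Col9a3 in HF5 was 1.25 with outlier spots kept and 1.24 in the authors' table. Within LFC Col8a1 was 0.36 with a linear trend, 0.33 on its second brightest probe and −1.28 (day 1) to 0.0019 (day 14) when 1 time point was left out. Col11a2 for the mean of doses was 0.15 with quantile normalisation. Of all values of single genes under the alternatives run for every gene, 43 of 282 turned sign in HF5, 18 of 282 in HF20, 8 of 282 in HF75, 3 of 372 in LFC and 28 of 358 in HFC.

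With 1 array per diet and time point the spread between animals at a time point was not measured. Saturation compresses Col1a2 and Col3a1, and values of Col28a1, Col11a1 and Col19a1 lie near background.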

Other observations

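At week 18 collagen genes read low in all 5 diets. These 5 arrays were scanned on the same date, which no other time point shares, so time point and scan date cannot be told apart. Of 36 genes 28 were below their own mean over 39 arrays in LFC, 27 in HFC, 31 in HF5, 25 in HF20 and 31 in HF75, with medians of −0.68, −0.49, −0.84, −0.58 and −0.88. The median of all probes on these arrays lay between −0.00 and 0.12.

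Day 14 and week 0 are the same time on the diet in the study's count, and their arrays were scanned on different dates. In LFC 15 of 36 collagen genes differed between the arrays of these times by over 1 log2 unit (41.7%, against 19.9% of all probes), and in HFC 12 of 36 did (33.3%, against 31.5%). The largest were Col24a1, Col2a1 and Col1a1 in HFC, which went from −2.92 to 2.20, from −2.21 to 2.79 and from 1.24 to 5.72. Col2a1 in LFC went from −1.01 to 2.93.

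The marker lists are given by the median late minus early difference in LFC and in HFC. These were −0.11 and −0.61 for adipocyte, −0.05 and 0.59 for fibroblast and progenitor, −0.16 and 0.78 for endothelial, −0.77 and 1.04 for smooth muscle and pericyte, 0.33 and −0.73 for macrophage, −1.80 and −1.84 for mesothelium, −0.67 and −0.79 for epididymis, −0.31 and 0.54 for testis, 0.87 and 1.22 for skeletal muscle and −2.69 and −1.74 for cell cycle genes. Testis markers summed to at most 90.4 (1 HF20 array), with a median of 0.774 in that diet. The level of the cell cycle list was lower in 7 of 8 genes in LFC and 8 of 8 in HFC.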
